A study of Mus musculus with 8 samples.

Results

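Secreted Wnt inhibitors are proteins released by cells that hold Wnt signals in check outside the cell, and 10 of their genes were followed here in mouse colon fibroblasts: Sfrp1, Sfrp2, Sfrp4, Sfrp5, Frzb, Dkk1, Dkk2, Dkk3, Wif1 and Notum. The members were given as a list of names, drawn up with earlier results of these data known, and a gene was read from the transcript cluster (a row of the array) that the platform's annotation assigns to that gene alone. All 10 had exactly 1 such cluster, among 30702 genes named in this way. RNA of 8 samples was hybridised to 8 Affymetrix mouse transcriptome arrays, 4 for CD90- and 4 for CD90+ fibroblasts from the colon of wild-type C57BL/6J mice. All 8 had first been gated by flow cytometry as negative for Epcam, CD45 and CD31 and positive for gp38, so both populations share that gate and differ in the surface protein CD90. The cells came from 4 mice, whose age the sources used here do not give and which no label ties to a sample, so every p-value measures the spread between these samples. Samples are called by the numbers in their titles, 13, 15, 17 and 19 for CD90- and 14, 16, 18 and 20 for CD90+.

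Wnt ligands are lipid-modified proteins that bind Frizzled receptors and, for signals through beta-catenin, the co-receptors Lrp5 and Lrp6. In the colon this signal is strong at the crypt base, where it maintains stem cells, and mesenchymal cells under the epithelium are a source of both ligands and inhibitors. Sfrp1, Sfrp2, Sfrp4, Sfrp5 and Frzb (also called sFRP3) are secreted Frizzled-related proteins, which carry a cysteine-rich domain like that of the receptors and bind Wnt. Wif1 binds Wnt through a different domain. Dkk1 and Dkk2 bind Lrp5 and Lrp6, with Kremen proteins as partners, while Dkk3 is the divergent member of the Dickkopf family. Notum is an enzyme that removes the lipid from Wnt.

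The members did not move as a block. Sfrp1, Sfrp4, Frzb and Sfrp2 were higher in CD90+ fibroblasts, and Wif1 and Dkk3 were higher in CD90- fibroblasts. Levels are log2 values as the authors deposited them, written as mean ± SD with n = 4 per population; a difference is CD90+ minus CD90-. Of the 10 members, 7 passed a filter on dim clusters (5.36, the median of all cluster values, reached on at least 4 of the 8 arrays) and entered a limma fit over 17221 genes, in which a gene was called at a Benjamini-Hochberg adjusted p under 0.05. In that fit 4 members were called higher, where 14.0% of all genes were, and 2 were called lower, where 15.7% were; calls in either direction made up 29.7% of all genes. In 5 of the 7 the values of CD90+ samples lay all above or all below those of CD90- samples, which held for 32.3% of all genes tested. The median difference of the 7 was 0.85 and their median size of difference 1.91, beside -0.014 and 0.18 over all genes tested. Each of the 7 reached the filter on at least 6 arrays, and 3 members (Sfrp5, Dkk1 and Notum) were below it. In RNA from sorted populations, more cells that express a gene and more RNA per cell cannot be told apart.

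**Figure D1:**
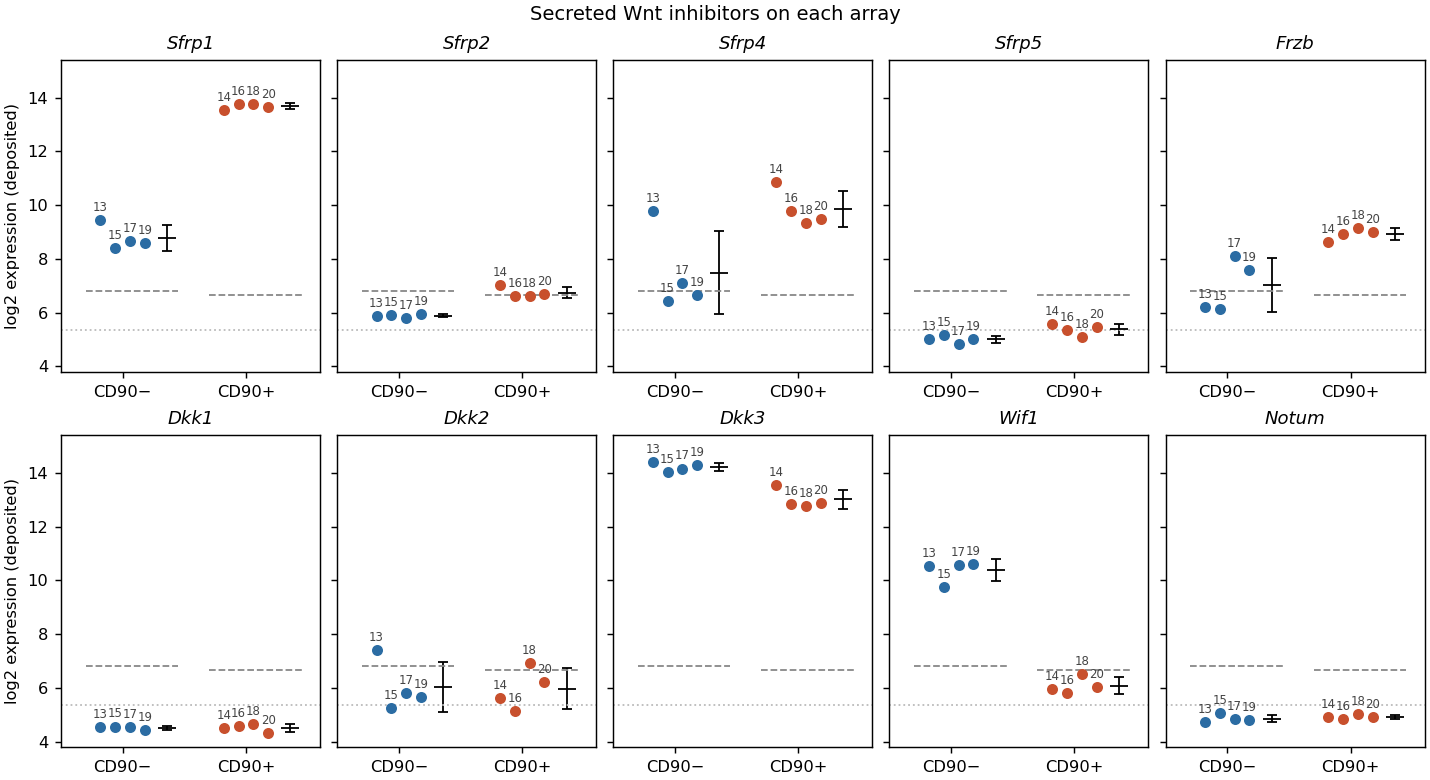
Deposited log2 expression of the 10 secreted Wnt inhibitors on each of the 8 arrays, with sample numbers beside the points and mean ± SD (n = 4) at the right of each population. The dashed lines mark the mean over 4 arrays of the median of the negative control rows and the dotted line the filter at 5.36. Sfrp1 and Wif1 have the widest gaps between the populations, and Sfrp5, Dkk1 and Notum lie below the dashed lines on all 8 arrays.

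Some facts about the arrays bear on these values. Thy1, which codes for CD90, was at 5.52 ± 0.046 in CD90- and 7.69 ± 0.47 in CD90+ samples (difference 2.17, limma adjusted p = 8.11e-05), and Pdpn, which codes for gp38, was at 13.17 and 13.2 (limma adjusted p = 0.865), so the labels matched the sort. Epcam was nevertheless measured at 8.06 and 8.19, and 0 of 7 tested epithelial markers were called by limma (0 also at an unadjusted p under 0.05). The medians of the array's negative control rows ran from 6.79 to 6.84 in CD90- and from 6.58 to 6.67 in CD90+ samples, so a value below them is a caution about the size of a difference, not a sign that the transcript was absent. Deposited values went up to 19.85, while a 16-bit scanner ends at 16, so a fold here belongs to this scale and is no ratio of RNA amounts. The arrays also fell into sets that both populations share. Xist was at 16.16 and 16.27 in samples 13 and 14 and at most 9.32 in the others, and Cwc22 was between 7.86 and 9.43 in samples 13 to 16 and at least 13.47 in samples 17 to 20. Differences are therefore also given within samples 13 and 14, within 15 and 16, and within 17 to 20.

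Among the Frizzled-related proteins, Sfrp1 showed the widest difference of any member. It read 9.47, 8.39, 8.65 and 8.6 in CD90- samples 13, 15, 17 and 19, and 13.53, 13.77, 13.78 and 13.66 in CD90+ samples 14, 16, 18 and 20. Every CD90+ sample was above every CD90- sample, with a gap of 4.06 between the nearest ones, and the CD90+ samples lay closer together (SD 0.118) than the CD90- samples (SD 0.474). The difference was 4.91 (95% interval 4.43 to 5.38; limma adjusted p = 1.03e-06), or 30.0-fold on the deposited scale, the 11th highest of the 17221 genes. Within the sets of arrays it was 4.06, 5.38 and 5.1. The smallest of these came from samples 13 and 14, where the CD90- sample held the highest Sfrp1 of its population.

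Sfrp4 was also called higher, but its populations overlapped. The CD90- samples 13, 15, 17 and 19 read 9.78, 6.42, 7.09 and 6.67, and the CD90+ samples 14, 16, 18 and 20 read 10.85, 9.77, 9.35 and 9.49. Sample 13 was thus above 3 of the 4 CD90+ samples, while the other CD90- samples were below all of them. The difference was 2.37 (95% interval 0.76 to 3.99; limma adjusted p = 0.0347), and the two-sided exact permutation test over the 70 assignments of samples gave p = 0.1143. Within the sets the difference was 1.07, 3.35 and 2.54, always higher in CD90+. Its spread within populations (residual SD 1.2) was at percentile 99.7 of all genes tested. Leaving out any 1 of samples 14 to 20 ended the call, with limma adjusted p from 0.0564 to 0.0924, while the difference stayed between 2.02 and 2.54. Leaving out sample 13 raised the difference to 3.14 (limma adjusted p = 0.000411), and leaving out both 13 and 14 gave 2.81 (limma adjusted p = 4.62e-05). The permutation test and these fits did not model the sets of arrays. With the sets, which were chosen with results known, as a block, Sfrp4 had a limma adjusted p of 0.00158.

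The 2 samples with the highest Sfrp4 of their populations, 13 and 14, also had the highest mean of the smooth muscle markers (Myh11, Actg2, Des, Acta2, Cnn1 and Lmod1). That mean was 9.47 in sample 13 against 8.69 to 9.01 in the other CD90- samples, and 10.55 in sample 14 against 9.19 to 9.31 in the other CD90+ samples. Over all samples the smooth muscle mean did not differ beyond the spread (8.69 to 9.47 in CD90-, 9.19 to 10.55 in CD90+; exact permutation p = 0.1714, adjusted p = 0.2142 over 10 marker lists), although 4 of its 6 genes were called higher and Acta2 lower. Samples 13 and 14 were likewise the highest of their populations for the lists of interstitial cells of Cajal (10.97 and 7.69), pericytes (8.46 and 7.34) and mesothelium (5.3 and 5.83). The same 2 samples form the set with Xist at 16.16 and 16.27, where the others were at most 9.32. These cells and whatever else sets this pair of arrays apart cannot be told apart here. The part of either in the level of Sfrp4 was not tested. The pair did not move together in every list. For the epithelial and endothelial lists sample 13 was the highest of CD90- (9.37 and 6.93) and sample 14 the lowest of CD90+ (7.57 and 6.39). Sample 14 was also the lowest of CD90+ for the leukocyte, neuronal and enteric glia lists.

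**Figure D2:**
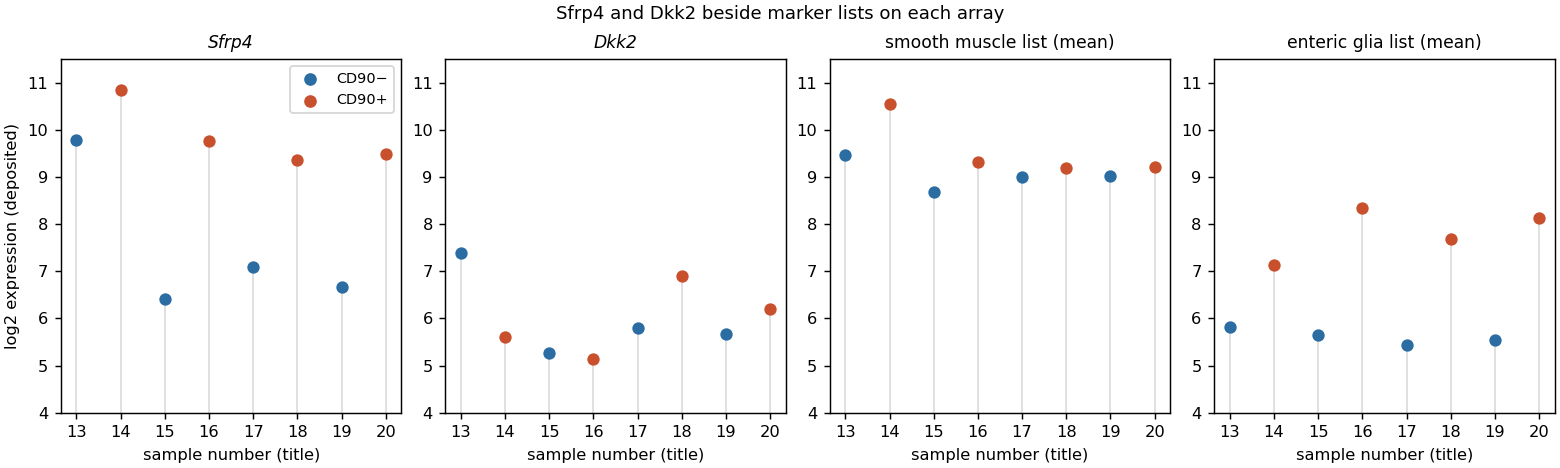
Deposited log2 expression of Sfrp4 and Dkk2, and the mean log2 expression of the smooth muscle and enteric glia marker lists, on each array by sample number (blue CD90-, red CD90+). Samples 13 and 14 are the highest of their population for Sfrp4 and for the smooth muscle list, Dkk2 is highest in sample 13 at 7.39, and the glia list separates the populations.

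Frzb was higher in CD90+, and its CD90- samples were split. Samples 13 and 15 read 6.23 and 6.12, below the negative control rows, while samples 17 and 19 read 8.13 and 7.6. The CD90+ samples 14, 16, 18 and 20 were more alike, at 8.63, 8.93, 9.14 and 9.02. In both populations the samples of the set 17 to 20 were the higher ones. The populations did not overlap, but the nearest samples were only 0.5 apart. The difference was 1.91 (95% interval 0.93 to 2.89; limma adjusted p = 0.0101), and within the sets it was 2.4, 2.81 and 1.22. Where 2 of the CD90- values are below the control rows the larger differences are less exact, and the value of 1.22 comes from samples that were all above them.

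Sfrp2 was dim in both populations. It read 5.88, 5.92, 5.81 and 5.94 in CD90- samples 13, 15, 17 and 19, and 7.03, 6.62, 6.61 and 6.7 in CD90+ samples 14, 16, 18 and 20. All 4 CD90- values and those of samples 16 and 18 were below their arrays' negative control medians, although the populations were well apart relative to their spread. The difference was 0.85 (95% interval 0.63 to 1.08; limma adjusted p = 0.00029). When every value below the common median of the negative control rows, 6.73, was raised to it, a setting chosen after seeing the data, the difference shrank to 0.08 (limma adjusted p = 0.607). With each array's own control median in its place, it was -0.05 (limma adjusted p = 0.667). The control medians were higher in CD90- samples, so that setting by itself lowers the differences of dim genes. It moved the median difference of all genes tested to -0.14, so the sign of -0.05 is not read. The call for Sfrp2 and the size of its difference therefore rest on values below the control rows.

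Sfrp5, the remaining Frizzled-related gene, was below the filter. It read 5.02, 5.17, 4.83 and 5.01 in samples 13, 15, 17 and 19 and 5.59, 5.36, 5.11 and 5.48 in samples 14, 16, 18 and 20, all below the control rows. The populations overlapped, and the difference of 0.38 did not pass (exact permutation p = 0.0571, adjusted p = 0.1714 over the 3 members below the filter).

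Wif1 ran the other way and was the member with the widest fall. It read 10.54, 9.76, 10.57 and 10.61 in CD90- samples 13, 15, 17 and 19, and 5.96, 5.81, 6.53 and 6.04 in CD90+ samples 14, 16, 18 and 20. The populations were 3.23 apart at their nearest samples, and all 4 CD90+ values were below the negative control rows. The difference was -4.29 (95% interval -4.79 to -3.79; limma adjusted p = 2.61e-06). Within the sets it was -4.59, -3.95 and -4.31. Raising dim values to the common control median left a difference of -3.64 (limma adjusted p = 8.06e-05).

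Of the Dickkopf genes, Dkk3 was far above the control rows in both populations and lower in CD90+. Samples 13, 15, 17 and 19 read 14.4, 14.02, 14.16 and 14.28, and samples 14, 16, 18 and 20 read 13.55, 12.86, 12.78 and 12.89. No sample overlapped, with a gap of 0.47 between samples 15 and 14. The difference was -1.2 (95% interval -1.59 to -0.81; limma adjusted p = 0.000916), or 2.29-fold lower on the deposited scale. It was -0.85, -1.16 and -1.39 within the sets.

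Dkk2 varied between samples of the same population more than between populations. The CD90- samples 13, 15, 17 and 19 read 7.39, 5.26, 5.8 and 5.67, and the CD90+ samples 14, 16, 18 and 20 read 5.61, 5.14, 6.91 and 6.2. Only samples 13 and 18 were above the control rows, 1 in each population. The difference was -0.07 (95% interval -1.22 to 1.09; limma adjusted p = 0.938), an interval wide enough to include a 2-fold change either way. Within the sets it was -1.78, -0.12 and 0.82, so the direction changed from set to set. Its residual SD was at percentile 99.2 of all genes tested.

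Dkk1 and Notum never reached the filter, and their populations overlapped. Dkk1 ran from 4.42 to 4.56 in CD90- and from 4.32 to 4.65 in CD90+ samples (difference 0; exact permutation p = 0.9714, adjusted p = 0.9714 over the 3 members below the filter). Notum ran from 4.73 to 5.05 and from 4.82 to 5.01 (difference 0.06; exact permutation p = 0.4857, adjusted p = 0.7286). All their values were below both the filter and the control rows.

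**Figure D3:**
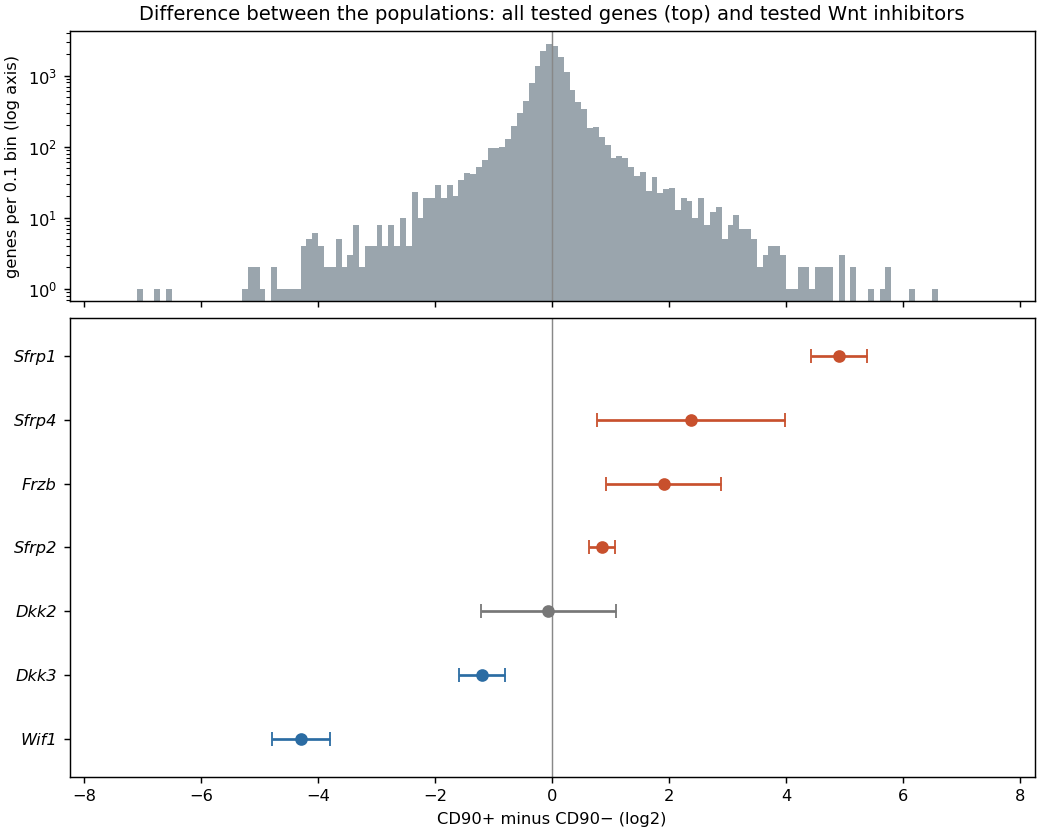
Upper panel: number of genes (log axis) by difference between the populations, CD90+ minus CD90- in log2, for the 17221 genes tested. Lower panel: the same difference for the 7 tested members, with 95% intervals from the limma fit, red where called higher, blue where called lower and grey where not called. Sfrp1 at 4.91 and Wif1 at -4.29 lie in the far tails of the upper panel, and the interval of Dkk2 spans 0.

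The calls of Sfrp1, Sfrp2, Frzb, Dkk3 and Wif1 kept their direction and stayed past the threshold when any 1 array was left out. Leaving out 1 array moved the difference of Sfrp1 between 4.78 and 5.14, of Sfrp2 between 0.76 and 0.9, of Frzb between 1.61 and 2.28, of Dkk3 between -1.38 and -1.12, and of Wif1 between -4.49 and -4.2. With the 3 sets of arrays as a block the 6 members were called as before, and Sfrp4 had a limma adjusted p of 0.00158.

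**Figure D4:**
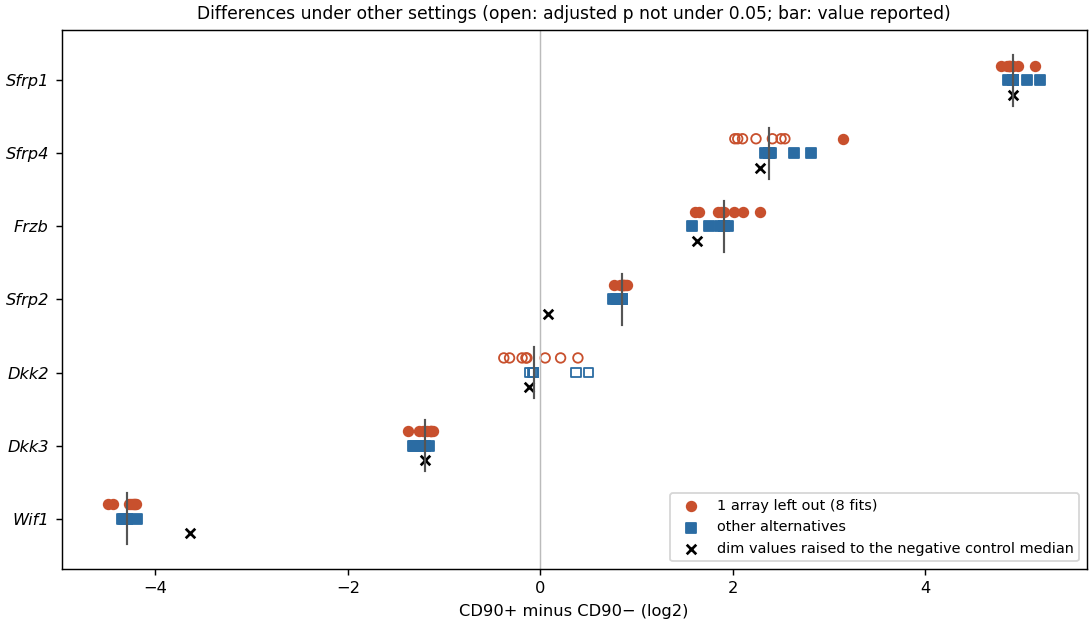
Difference between the populations (CD90+ minus CD90-, log2) for the 7 tested members under other settings: red circles leave out 1 array, blue squares are the other alternatives, filled where the limma adjusted p was under 0.05 and open where it was not. Crosses, which carry no call, are fits with dim values raised to the common control median, and the vertical bars mark the values reported. Sfrp4 has 7 open circles of 8, and the cross of Sfrp2 sits near 0.

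The stretch of 250 bases before the transcription start was read from RefSeq for the 6 members with an entry (Sfrp2, Sfrp5, Frzb, Dkk1, Dkk2 and Wif1), build GRCm38.p6. The 3 printed here belong to a gene that was higher in CD90+ (Frzb, chr2:80447397-80447646, minus strand), a gene that was lower (Wif1, chr10:121033754-121034003, plus strand) and a gene not detected above the control rows (Dkk1, chr19:30549497-30549746, minus strand), so that their promoters can be set side by side. Each runs 5′ to 3′ along its gene and ends at the base before the start. Capitals mark matches, on either strand, to the TCF/LEF letters (CTTTG followed by a pair of bases that are each A or T), to the GC box (GGGCGG) and to the TATA box (TATAAA).
Frzb: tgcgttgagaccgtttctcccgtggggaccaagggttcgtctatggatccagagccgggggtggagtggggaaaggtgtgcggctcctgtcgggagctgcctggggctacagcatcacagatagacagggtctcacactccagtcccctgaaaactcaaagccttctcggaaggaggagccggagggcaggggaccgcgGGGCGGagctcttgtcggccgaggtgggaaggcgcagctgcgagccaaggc
Wif1: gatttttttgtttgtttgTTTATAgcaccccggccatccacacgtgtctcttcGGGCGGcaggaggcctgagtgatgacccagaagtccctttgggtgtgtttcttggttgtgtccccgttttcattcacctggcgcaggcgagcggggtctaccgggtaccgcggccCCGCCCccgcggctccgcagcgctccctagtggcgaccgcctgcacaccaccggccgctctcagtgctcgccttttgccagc
Dkk1: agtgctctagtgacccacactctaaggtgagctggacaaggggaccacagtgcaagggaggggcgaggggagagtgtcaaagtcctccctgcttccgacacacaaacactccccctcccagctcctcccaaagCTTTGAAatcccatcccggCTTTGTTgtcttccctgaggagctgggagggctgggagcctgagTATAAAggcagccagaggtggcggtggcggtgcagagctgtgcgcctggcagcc

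TCF and LEF are the DNA-binding factors of the Wnt pathway, and Dkk1 is a textbook target of the pathway it inhibits. The Dkk1 stretch held 2 matches to the TCF/LEF letters, starting 117 and 98 bases before the start, and the other 5 stretches held none. Of 32851 promoter stretches of the same length, 14.8% held such a match, 32.7% a GC box and 12.4% a TATA box. Wif1 and Dkk2 each held 2 GC boxes, Frzb and Sfrp5 1 each, and Dkk1 and Sfrp2 none. Dkk1, Dkk2 and Wif1 held 1 TATA box each, that of Wif1 on the opposite strand and starting 232 bases before the start. Wif1 held 21 CpG dinucleotides, Frzb and Sfrp2 16 each, Sfrp5 13, Dkk2 7 and Dkk1 6, where the median over all stretches was 6. Frzb, which was higher in CD90+, and Wif1, which was lower, had promoters of like composition, with 64.4% and 62.8% G and C. The likeness is not particular to this pair. The remaining stretches ran from 55.6% (Dkk2) to 63.6% (Sfrp2), where the median over all stretches was 52.4%. These matches describe letters only. Nothing in this series measured binding or methylation at them.

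Markers of enteric glia and some neuronal markers were higher in CD90+ samples together with the Frizzled-related genes. All 7 tested glia markers were called higher, where 14.0% of all genes tested were. The mean of the list ran from 5.44 to 5.81 in CD90- and from 7.14 to 8.35 in CD90+ samples (exact permutation p = 0.0286, adjusted p = 0.0409 over 10 lists). Kcna1 (added to the naming rule) was at 5.57 and 10.76, Cdh19 (added) at 5.28 and 10.44, and the defining gene Sox10 at 5.64 and 6.87. These CD90- means were below the control rows, so the sizes of the rises are not exact. The CD90- means of Cdh19 and Gfap (5.22) were also under the filter of 5.36. Kcna1 and Cdh19 differed most, by 5.18 and 5.16, and the other tested glia markers by 0.29 (Foxd3) to 1.47 (Erbb3). The neuronal list ran from 5.04 to 5.18 and from 6.13 to 6.23 (exact permutation p = 0.0286, adjusted p = 0.0409), with 5 of its 6 genes below the control rows on all arrays. The remaining one, Stmn2, was at 6.39, below the control rows, and 11.08. Its difference of 4.7 weighed most in the mean of the neuronal list. Ret and Uchl1 differed by 0.82 and 0.71, and Elavl4, Snap25 and Tubb3, below the filter, by 0.01, 0.11 and 0.15. Ret had a CD90- mean of 5.2, under the filter, and passed it on its CD90+ values. Within CD90+ the glia mean was lowest in sample 14, where Sfrp1 and Frzb were also lowest and Sfrp4 and Sfrp2 were highest. The mean of the fibroblast markers (Col1a1, Col1a2, Col3a1, Dcn, Lum, Pdgfrb and Vim) was far above the control rows on every array, at 15.33 to 15.57 in CD90- and 15.61 to 15.72 in CD90+ (exact permutation p = 0.0286, adjusted p = 0.0409). These 7 genes did not move together. Dcn, Lum and Vim were called higher (by 0.75, 0.69 and 0.38), Col1a2 was called lower (difference -0.72), and the rest were not called. The part of glia or neurons in the levels of the members was not tested.

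The counts for the other Wnt lists stand beside 14.0% of all genes called higher and 15.7% called lower, and nothing particular to a list is read from them. Of 19 Wnt ligands, 5 passed the filter, 2 were called higher and 1 lower. Wnt5a, a ligand of signalling without beta-catenin, fell from 12.27 ± 0.178 to 7.66 ± 0.342 (limma adjusted p = 5.26e-07), Wnt2b rose from 8.19 ± 0.33 to 12.11 ± 0.327, and Wnt2 rose by 0.95 with all values below the control rows. Wnt2 passed the filter on its CD90+ values. The ligand genes thus held 1 strong rise and 1 strong fall, as the inhibitors did with Sfrp1 and Wif1.

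Of 17 receptors and co-receptors, 14 were tested, 3 were called higher and 5 lower, with a median difference of -0.08. The 3 genes with the smallest p were all lower. Ror2, a receptor for Wnt5a, differed by -2.25 (limma adjusted p = 1.34e-05). Kremen1, a receptor for Dickkopf proteins, differed by -0.98 (limma adjusted p = 1.57e-05), and Ryk, a Wnt co-receptor, by -1.01 (limma adjusted p = 6.91e-05). Fzd1 rose by 1.67 (limma adjusted p = 9.31e-05) and Fzd4 by 1.79 (limma adjusted p = 0.000828), both named after their values were seen. Lrp6 and Lrp5, the co-receptors that Dkk1 and Dkk2 bind (both added to the naming rule after their values were seen), differed by 0.42 (limma adjusted p = 0.003) and -0.15 (limma adjusted p = 0.153). Kremen1 was thus lower in CD90+ and Lrp6 higher, while Dkk2 was not called and Dkk1 was below the filter.

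Of 17 other extracellular modulators, 9 were tested, 6 were called higher by limma and 0 lower, with 0 lower also at an unadjusted p under 0.05. Rspo3, an agonist that amplifies Wnt signals, rose from 6.17 ± 0.332, below the control rows, to 9.23 ± 0.17. Igfbp4, an IGF-binding protein also known to inhibit Wnt, rose by 3.65 and Trabd2b, a membrane protease that cleaves Wnt, by 1.58. Agonists and inhibitors were both among the genes that rose.

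Of 15 target and feedback genes, 9 were tested, 4 were called higher and 3 lower, with a median difference of 0.17. Cd44, a hyaluronan receptor, fell by a difference of -2.17, while Znrf3, a ligase that removes Frizzled receptors, rose by 1.12 and the transcription factor gene Tcf7l2 by 0.72. Axin2 (added), the widely used readout of beta-catenin signalling, was at 6.43 ± 0.31 and 6.59 ± 0.106 (difference 0.17, limma adjusted p = 0.431). Without sample 13 it was called higher at 0.31 (limma adjusted p = 0.0339). Its CD90- mean was below the control rows (6.79 to 6.84) and its CD90+ mean at their level (6.58 to 6.67). The size of its difference is therefore not exact, and the missing call is no reading of beta-catenin signalling.

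**Figure D5:**
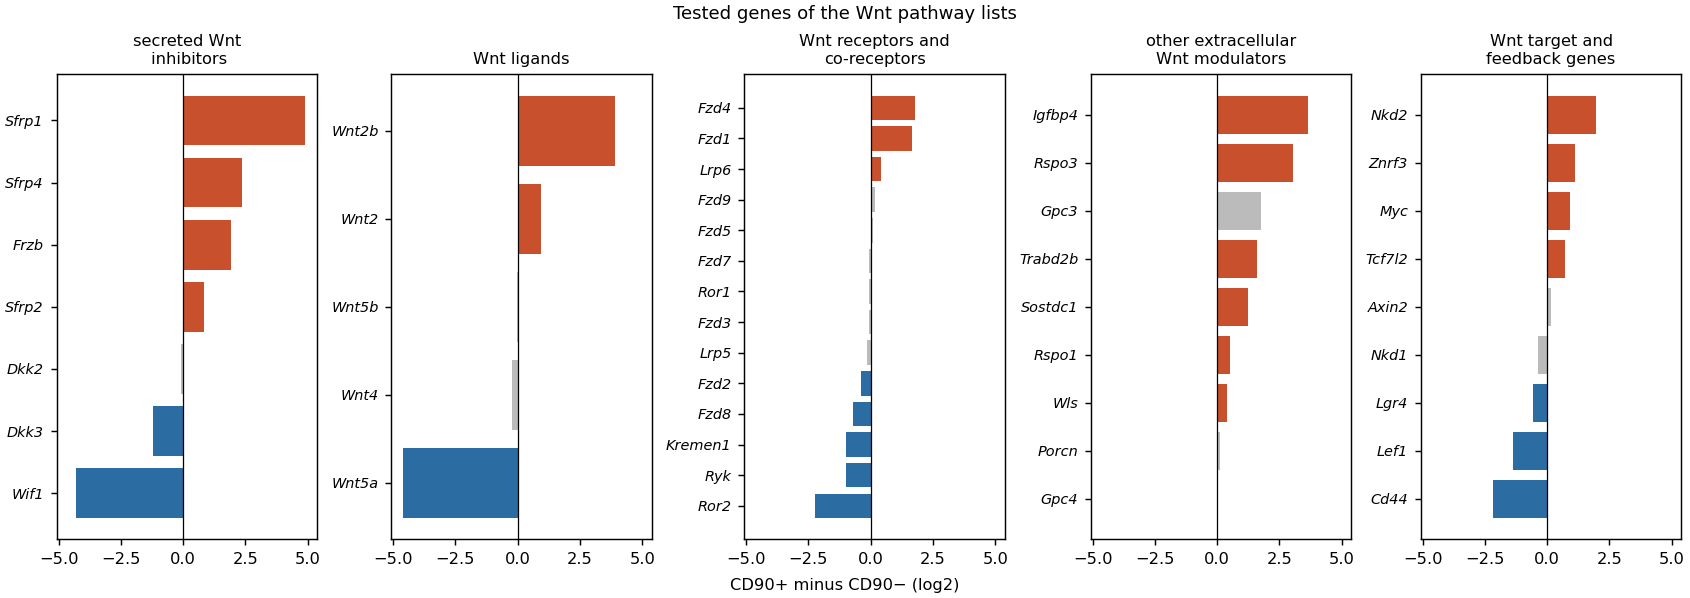
Difference between the populations (CD90+ minus CD90-, log2) for every tested gene of the secreted Wnt inhibitors and of 4 other Wnt lists, with bars red where called higher, blue where called lower and grey where not called. Each list but the other extracellular modulators holds calls in both directions, from Sfrp1 at 4.91 to Wnt5a at -4.6.

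The genes most like Sfrp1 and Wif1 over the 8 arrays were named by Pearson's r, as a description of arrays that fall into 2 populations. For Sfrp1 they were Plcb1 (r = 0.9996), Gda (0.9985), Lpar1 (0.9982), Adamts10 (0.9981) and Gas7 (0.9974), whose differences ran from 0.88 for Lpar1 to 4.06 for Gda. For Wif1 they were Cacna1g (r = 0.9964), Ptprr (0.9952), Inf2 (0.995), Ccn4 (0.9948) and Septin4 (0.9945), whose differences ran from -1.78 for Inf2 to -3.69 for Septin4. Plcb1 codes for a phospholipase C, Cacna1g for a T-type calcium channel subunit, and Ccn4 for a matricellular protein also known as WISP1.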

How the data were processed

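Expression was measured on 1 Affymetrix array for each of 8 samples, 4 CD90- and 4 CD90+. Per the labels' protocols, 2 ng of RNA was amplified and labelled; spread from amplification weighs most on dim genes. The values deposited by the authors are on a log2 scale, with 1 value for each array and transcript cluster. RMA and Affymetrix Expression Console 1.1 are the tools named per the submitters' processing notes; RMA corrects background, quantile-normalizes and summarises probes. The sources used here give neither the settings nor the genome build of the array. Of 65956 clusters, 31258 named 1 gene in the platform annotation (30702 genes), 1492 named several and 33206 none. Symbols were updated through RefSeq (GRCm38.p6).

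Clusters below 5.36 on more than 4 arrays were left out, and each gene was read from its cluster with the highest mean. The 17221 genes left were tested in limma 3.58.1 (R 4.3.3; lmFit and eBayes, two-sided, Benjamini-Hochberg adjustment, no block). For marker list means and for members below the filter, exact permutation tests (two-sided) ran over the 70 assignments of samples, where 4 samples against 4 can reach no p below 0.0286. In simulated data with 17221 genes, 200 were changed and noise was drawn independently for each array. There the fit called 44.8%, 95.5% and 97.0% of genes changed by 0.5, 1 and 2 (log2). The deposited data had 29.7% of genes called and sets of arrays, so these rates are no measure of sensitivity in them.

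The members, the lists and the sets of arrays were chosen with earlier results of these data known. Genes named were the 10 members, the gate genes, per Wnt list at most 3 genes, those of smallest p, and the 5 genes most correlated with the member of largest rise and of largest fall; predicted genes, RIKEN clones and small RNAs were to be skipped. Alternatives changed the filter, normalization, variance model, array weights, choice of cluster, dim values, block and samples left out. Python 3.11.15 was used for tables and figures.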

Additional observations from a re-analysis of the deposited data

Results flagged for a closer look

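Of 50 groups of 4 samples checked (members, gate genes and marker list means), 7 held a sample far from the other samples of its population; chance gives about 1 in 20. Among the members, Dkk3 was at 13.55 in CD90+ sample 14, against 12.78 to 12.89 in the others, and Wif1 was at 9.76 in CD90- sample 15, against 10.54 to 10.61. Sample 14 also stood apart in Pdpn (13.54 against 13.06 to 13.11), in the smooth muscle list (10.55 against 9.19 to 9.31) and in the neuronal list (6.13 against 6.23 in the other 3). Sample 15 stood apart in Ptprc (4.74 against 4.49 to 4.53) and in the fibroblast list (15.33 against 15.53 to 15.57).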

How the results depend on the processing

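The fit called 5118 genes and 6 members. Leaving out 1 array gave 3982 to 5207 genes and 5 to 6 members; Sfrp4 was the member lost, without any 1 of samples 14 to 20. The other alternatives for the whole table (filter, normalization, variance model, array weights, choice of cluster, without samples 13 and 14, and the sets of arrays as a block) called 4486 to 7024 genes and 5 or 6 members, where the filter at the control rows tested only 5 members. Sfrp2 was at 0.08 with dim values raised to 1 common control median. With each array's control median it was at -0.05, in a setting that moved the median difference of all genes to -0.14. Sfrp4 was at 2.24 (limma adjusted p = 0.0269) with each array's median and kept its call, and at 2.28 (limma adjusted p = 0.0908) with the common median. Dkk2 ran from -0.38 to 0.5 and was never called. Under the alternatives other than those for dim values, 33 other named genes gave 554 of 558 results on the same side of the threshold. Pecam1 was called higher in 3 of the exceptions and Axin2 in 1. The settings for dim values were not read for these 33 genes, so their calls were not checked against them. No paired analysis by mouse was possible because the populations share no sample number and no label ties samples to a mouse; blocking on the sets of arrays called 6436 genes.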

Other observations

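Other marker lists also differed between the populations. The pericyte list ran from 8.08 to 8.46 in CD90- and from 7.04 to 7.34 in CD90+ samples, with 3 of its 5 genes called lower and 2 higher (Rgs5 by 1.49 and Notch3 by 0.23, both named after their values were seen). Of all genes tested, 15.7% were called lower and 14.0% higher. The list of interstitial cells of Cajal (Kit and Ano1) ran from 8.28 to 10.97 and from 6.59 to 7.69. Ano1 was called lower (difference -3.23, limma adjusted p = 0.000337), and Kit was not called (difference -0.95, limma adjusted p = 0.405). The leukocyte list ran from 5.18 to 5.41 and from 5.46 to 5.92, with 5 of its 7 measured genes below the control rows on all arrays, and the mesothelial list from 5.1 to 5.3 and from 5.52 to 5.83, with 3 of 4 below them. Each of these 4 had an exact permutation p of 0.0286 (adjusted p = 0.0409 over 10 lists). The epithelial list ran from 7.18 to 9.37 and from 7.57 to 9.46 (exact permutation p = 0.7429, adjusted p = 0.7429), and the endothelial list from 6.28 to 6.93 and from 6.39 to 6.98 (exact permutation p = 0.5143, adjusted p = 0.5714). Of the 6 endothelial genes, Tek was called higher (by 1.84). Lyve1 and Prox1 were called lower (differences -1.09 and -0.49), Prox1 with all values below the control rows. These genes were named after their values were seen.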
